A study of Homo sapiens with 2 samples.

Results

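The 10 genes examined are long non-coding RNAs (lncRNAs) named in the cancer literature: LUCAT1, HOTAIR, MALAT1, NEAT1, H19, HULC, PVT1, TUG1, UCA1 and HOTTIP. They were taken by name from the deposited gene table, where each matched 1 of the 50868 rows. Messenger RNA had been sequenced from 2 cultures labelled HepG2, a human hepatocellular carcinoma line. The parental culture had the genotype label WT and no treatment. The resistant culture had been selected in sorafenib, a kinase inhibitor used against liver cancer, from a starting dose of 2.5 µM in steps of 0.5 µM to a final dose of 7 µM. There was 1 library per group, so a difference between the libraries had no replicate check, no test of the treatment was possible, and the resistant library stands for a single selected culture. Parental and resistant below mean the libraries so labelled.

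Long non-coding RNAs are transcripts that are not translated into protein. Some, such as MALAT1 and NEAT1, stay in the nucleus and form or populate nuclear bodies. Others, such as HOTAIR and HOTTIP, are transcribed from the HOX clusters and have been described as partners of chromatin-modifying complexes, and several have been studied in liver cancer and in drug resistance.

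The libraries held 18067146 (parental) and 16811907 (resistant) counts. Levels are given as CPM, counts relative to library depth after TMM scaling, and a count of 0 allowed up to 0.166 CPM (parental) and 0.179 CPM (resistant). Intervals in parentheses are 95% intervals that cover counting error only, and PCR copies are not independent molecules. Of 12 hepatocyte marker genes, none reached 1 CPM, and their summed counts were 3 and 4. ALB, AFP, APOA1 and SERPINA1 were among the 10 of the 12 with no count in either library, which goes against the label HepG2. Fibroblast markers summed to 397 CPM (parental) and 404 CPM (resistant), with 2 of 8 at 0 in both. Endothelial markers summed to 2.76 and 6.03 CPM, with 1 of 5 at 0, and leukocyte markers to 5.79 and 9.60 CPM, with 4 of 6 at 0. Higher in the resistant library and past the size rule defined below, as was LUCAT1, were 2 of these markers: the fibroblast marker LUM, with 93 and 216 counts (2.51-fold, 1.96 to 3.24), and the endothelial marker CDH5, with 20 and 72 (3.89-fold, 2.34 to 6.75). Of the 5 fibroblast markers that reached 1 CPM, 4 were above 1-fold and COL3A1 was below, with 3941 and 3267 counts (0.896-fold, 0.855 to 0.939). The 2 endothelial markers that reached 1 CPM were above 1-fold, while VWF, which did not reach it, had 5 and 0 counts. The part of these markers in the results below was not tested.

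Of the 10 genes, 9 had a count in at least 1 library, and 8 were measured, that is, reached 1 CPM in at least 1 library. Of these 8, LUCAT1 alone, at 3.04-fold, passed the size rule, a log2 ratio of resistant to parental CPM (each plus 1) of at least 1 or at most -1. The rule was passed by 2.30% of all 14686 measured genes and by 2.01% of the 1393 measured lncRNA genes. In the higher direction alone it was passed by 1.31% of all measured genes and 1.22% of measured lncRNA genes. None of the 8 passed it in the lower direction. The 4 genes with a positive ratio were LUCAT1, PVT1, HOTTIP and UCA1, and the 4 with a negative ratio were HOTAIR, MALAT1, TUG1 and NEAT1. Their median log2 ratio was 0.08, against 0.03 over the measured lncRNA genes and -0.0018 over all measured genes. The ratio was positive in 49.7% of all measured genes and 53.3% of measured lncRNA genes. Counts by sign below stand beside these shares. In a bulk library, fewer cells with a transcript and less of it per cell cannot be told apart.

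**Figure D1:**
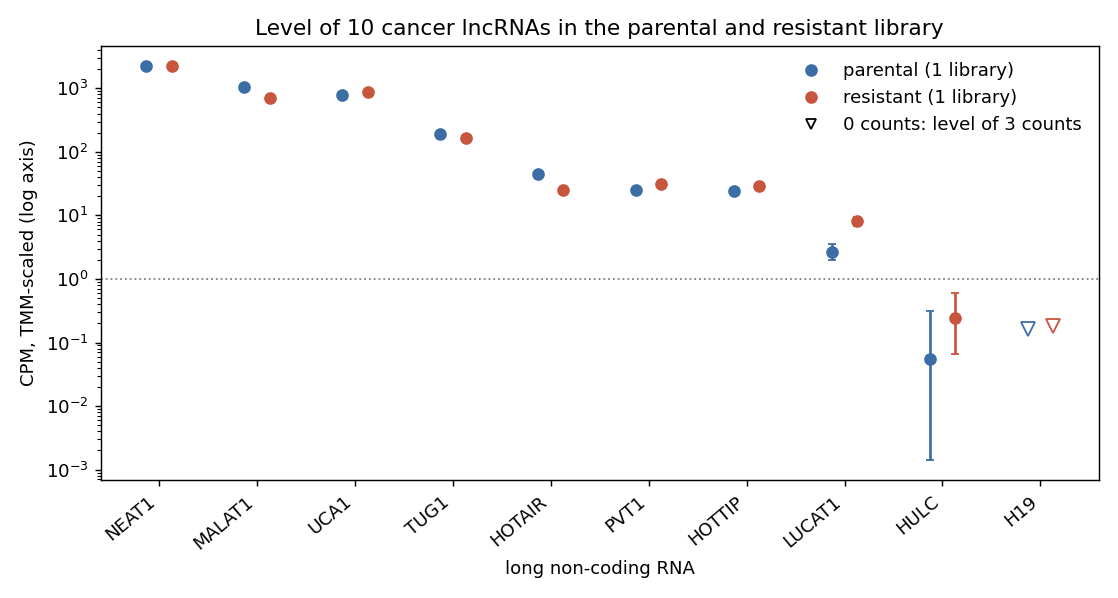
CPM of each of the 10 RNAs in the parental and the resistant library, on a log axis, with exact Poisson 95% intervals of the counts and, for H19, open triangles at the level of 3 counts. CPM is not per length, so points are to be compared within a gene: LUCAT1 has the widest gap among the 8 measured genes, and H19 has no count in either library.

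LUCAT1, lung cancer associated transcript 1, is a lncRNA known to be induced by the oxidative stress regulator NRF2 in lung cells. Its row (ENSG00000248323) lies on the minus strand of chr5:91303029-91314402 (GRCh38). It had 48 parental and 135 resistant counts, or 2.65 and 8.05 CPM. The resistant level was 3.04-fold the parental level (2.17 to 4.32), a log2 ratio of 1.31, and 99.4% of measured lncRNA genes had a lower ratio. Among the measured lncRNA genes its rank by deposited FPKM was 966 (parental) and 421 (resistant). The authors' deposited table gives LUCAT1 a log2 fold change of 1.596 and calls it up, the only call that table makes among the 10. The size rule was no longer passed with a pseudocount of 5 CPM (log2 ratio 0.77) or on the deposited FPKM with a pseudocount of 1 (0.90). The 3 measured lncRNA genes closest to it in log2 ratio, a likeness over these 2 libraries only, were AL590004.3 (1.29), AC007780.1 (1.29) and KB-1572G7.2 (1.39).

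The sequence around the start of LUCAT1 is shown because 1 stretch of it holds 2 stress-related motifs. The window runs from 250 bases before to 50 bases after the RefSeq start, on the minus strand of chr5:91314353-91314652 (RefSeq, GRCh38.p14).
LUCAT1 promoter: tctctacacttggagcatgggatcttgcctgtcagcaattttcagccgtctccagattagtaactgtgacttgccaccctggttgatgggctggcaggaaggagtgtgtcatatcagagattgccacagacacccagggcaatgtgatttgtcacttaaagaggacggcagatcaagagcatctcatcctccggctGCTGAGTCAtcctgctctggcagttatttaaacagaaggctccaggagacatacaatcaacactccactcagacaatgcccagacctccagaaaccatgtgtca
Capitals mark GCTGAGTCA, from 54 to 46 bases before the start. It holds a match to the AP-1 element TGANTCA on the plus strand of the window and, overlapping it, a match to the antioxidant response element core TGACNNNGC on the other strand. Both strands were searched, and of 35116 RefSeq promoter windows of this length 7.71% held TGANTCA and 13.3% held TGACNNNGC. The 2 matches share bases, so these shares do not describe independent finds. A window of MALAT1, which was lower in the resistant library, held the antioxidant response element core as well. Such a match is a description of letters in this window, and binding was not measured.

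NRF2 is encoded by NFE2L2, held back by KEAP1, and its target genes serve glutathione and thioredoxin metabolism. Of 19 measured genes of an NRF2 list of 20, which holds NFE2L2 and KEAP1 beside target genes, none passed the size rule. The median log2 ratio was -0.14, with 7 ratios positive and 12 negative. NFE2L2 itself had 2003 parental and 973 resistant counts, 1.90-fold lower (1.76 to 2.06), and KEAP1 had 885 and 1191 (1.45-fold, 1.33 to 1.59). TXNRD1, thioredoxin reductase, had the largest positive ratio of the list at 1.63-fold (1.59 to 1.68), with 8155 and 12302 counts. GCLC, also of the list, was higher in the resistant library as well, with 1125 and 1682 counts (1.62-fold, 1.5 to 1.74). HMOX1, heme oxygenase, had 227 and 189 counts (0.900-fold, 0.738 to 1.10), and NQO1, a quinone reductase, had 2390 and 1779 (0.805-fold, 0.756 to 0.856). The list held genes on both sides of 0, and the part of NRF2 in the LUCAT1 difference was not tested. ARRDC3, the only measured gene within 100 kb of LUCAT1, had 721 and 708 counts (1.06-fold, 0.956 to 1.18), so the count of LUCAT1 per ARRDC3 count was 0.0666 (parental) and 0.191 (resistant).

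**Figure D2:**
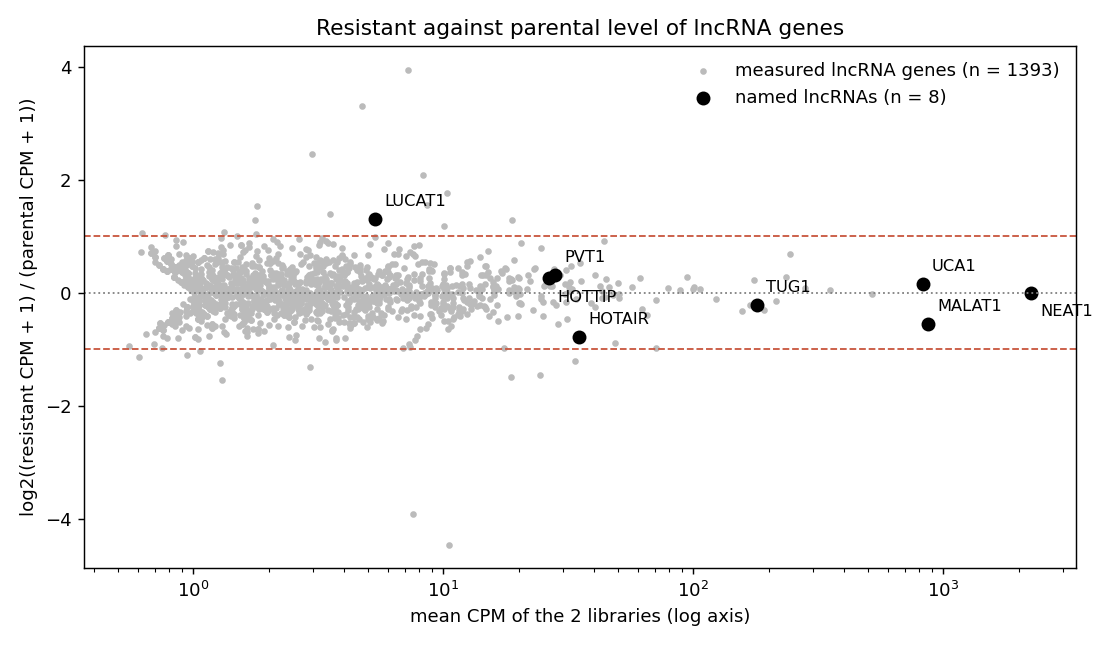
Log2 ratio of resistant to parental CPM (each plus 1) against mean CPM on a log axis, with 1 point for each measured lncRNA gene and the 8 measured genes of the set named. LUCAT1 is above the line at 1, and HOTAIR at -0.78 is the lowest of the 8.

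HOTAIR is transcribed from the HOXC cluster, opposite in strand to the HOXC genes, and has been described as a scaffold for the repressive complexes PRC2 and LSD1-CoREST. Its row (ENSG00000228630) lies on the minus strand of chr12:53962308-53974956. It had 805 parental and 427 resistant counts, or 44.4 and 25.5 CPM. The resistant level was 1.74-fold lower (1.55 to 1.97), and the log2 ratio of -0.78 did not pass the size rule. Of measured lncRNA genes, 5.96% had a ratio farther from 0. The authors' deposited table gives it a log2 fold change of -0.811 with no call.

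The locus of HOXC11, on the plus strand of chr12:53973126-53977643, overlaps that of HOTAIR, but no exon of HOXC11 overlaps one of HOTAIR in GENCODE 29. HOXC genes encode homeodomain factors that set position along the body axis. HOXC11 had 494 parental and 341 resistant counts, 1.34-fold lower (1.17 to 1.54). HOXC-AS3, the next antisense RNA of the cluster, had 74 and 39 counts, 1.76-fold lower (1.18 to 2.66). HOXC10 had 1617 and 1468 counts (0.981-fold, 0.914 to 1.05), and HOXC13 had 1065 and 869 (0.882-fold, 0.806 to 0.966). HOTAIR was thus lower also relative to these 2 neighbours: per HOXC10 count it went from 0.498 to 0.291, and per HOXC13 count from 0.756 to 0.491. Against HOXC-AS3 the ratio was 10.9 in both libraries, a resistant-to-parental quotient of 1.01 (0.661 to 1.55). Of 11 measured genes within 100 kb of HOTAIR, 8 had a negative log2 ratio, with a median of -0.18, and none passed the size rule. The largest ratio of the 11, in the other direction, was that of HOXC5, with 6 and 19 counts (3.42-fold, 1.31 to 10.5). HOXC12 had 2 and 3 counts and was not measured. Summed over HOTAIR and HOXC11, as counting without strand would leave unseparated where their reads overlap, the counts were 1299 and 768, a log2 ratio of -0.63.

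None of the 17 measured genes of a PRC2 and LSD1-CoREST list passed the size rule, and the median log2 ratio was -0.04, with 6 ratios positive and 11 negative. EZH2, the methyltransferase of PRC2, had 2261 and 2027 counts (0.969-fold, 0.912 to 1.03). SUZ12, a core subunit of PRC2, had 2550 and 2378 (1.01-fold, 0.953 to 1.07). KDM1A, the demethylase LSD1, had 9793 and 8160 (0.901-fold, 0.875 to 0.928). The largest ratios of the list were those of MTF2, an accessory subunit of PRC2, at 1.40-fold (1.25 to 1.58) and EPOP at 1.26-fold (1.10 to 1.44). These subunits lay closer to 1-fold than HOTAIR did, but so did most measured genes. Of all measured genes, 1.97% had a lower log2 ratio than HOTAIR.

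HOTTIP is transcribed from the distal end of the HOXA cluster and has been described as binding WDR5, a subunit of the MLL histone methyltransferases. Its row (ENSG00000243766) lies on the plus strand of chr7:27198575-27207259. It had 435 parental and 483 resistant counts, or 24.0 and 28.8 CPM, 1.20-fold (1.05 to 1.37) with a log2 ratio of 0.25. HOXA13, on the opposite strand, shares 86 exonic bases with it and had 1622 and 1322 counts (0.881-fold, 0.819 to 0.948). HOTTIP per HOXA13 count was 0.268 (parental) and 0.365 (resistant). Whether strand was used in counting is not stated in the labels. Summed over all rows overlapping the HOTTIP locus on either strand, the counts were 2080 and 1828, and the log2 ratio turned to -0.07 (0.95-fold, 0.892 to 1.01). HOXA13 held most of the counts in that sum. Adding only the rows on the strand of HOTTIP gave 458 and 506 counts, at 1.19-fold (1.05 to 1.36). How reads of the shared bases were assigned was not tested.

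Of 16 measured genes within 100 kb of HOTTIP, 8 had a positive and 8 a negative log2 ratio, and none passed the size rule. HOXA3 had the largest log2 ratio of them at 0.87, with 55 and 107 counts (2.10-fold, 1.51 to 2.97), and HOXA10 had 1990 and 1761 (0.957-fold, 0.897 to 1.02). HOTAIRM1, a lncRNA at the other end of the cluster, had 218 and 288 counts (1.43-fold, 1.19 to 1.71). The 9 measured genes of a WDR5-MLL list had a median log2 ratio of -0.0066, and none passed the size rule. WDR5 had 1350 and 1355 counts (1.08-fold, 1.01 to 1.17). KMT2A, the MLL1 enzyme, was at 1.20-fold (1.14 to 1.26), and MEN1, the menin subunit, was at 0.860-fold (0.766 to 0.965).

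**Figure D3:**
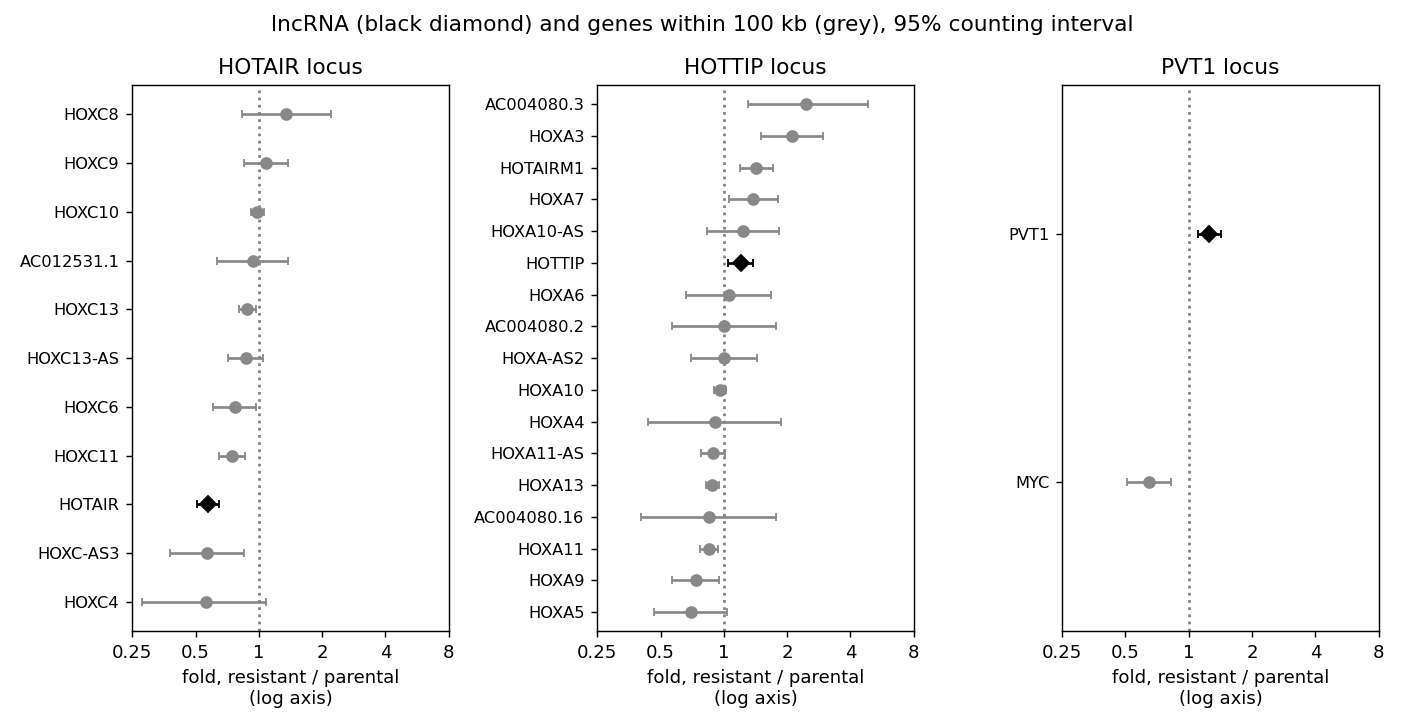
Fold of resistant to parental CPM on a log axis, with 95% intervals of the counts, for HOTAIR, HOTTIP and PVT1 (black) and the measured genes within 100 kb (grey) that had at least 30 counts over both libraries. HOTAIR, HOXC-AS3, HOXC11, HOXC6 and HOXC13 lie to the left of 1 with their whole intervals. The intervals of the other genes shown for the HOTAIR locus include 1, and of these HOXC8 and HOXC9 lie to the right. HOTTIP and HOXA13 lie on either side of 1, and so do PVT1 and MYC.

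MALAT1 and NEAT1 are neighbours on chromosome 11. NEAT1 is the architectural RNA of paraspeckles, and MALAT1 resides in nuclear speckles, which hold splicing factors. MALAT1 (ENSG00000251562, plus strand of chr11:65497762-65506516) had 18708 parental and 11840 resistant counts, or 1032 and 706 CPM. The resistant level was 1.46-fold lower (1.43 to 1.5), a log2 ratio of -0.55, and 16.2% of measured lncRNA genes had a ratio farther from 0. NEAT1 (ENSG00000245532, plus strand of chr11:65422774-65445540) had 40700 and 37603 counts, or 2246 and 2243 CPM, at 0.999-fold (0.985 to 1.01). Across the 52222 bases between them the ratios thus differed: MALAT1 per NEAT1 count was 0.460 (parental) and 0.315 (resistant), a quotient of 0.685 (0.667 to 0.704). The pseudogene AP000769.1 (ENSG00000173727), which lies between them, had 162 and 108 counts (0.721-fold, 0.560 to 0.925). Of 10 measured genes outside the set within 100 kb of MALAT1, 7 had a negative and 3 a positive log2 ratio. For NEAT1 these were 5 and 2 of 7, and none passed the size rule at either locus. The counts do not separate the short and the long NEAT1 isoform.

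MALAT1 and the long NEAT1 isoform share an unusual 3′ end, which is cut by RNase P and protected by a triple helix in place of a poly(A) tail, while the short NEAT1 isoform is polyadenylated. It is shown because these libraries were made from separated messenger RNA, and how it was separated is not stated in the labels. The stretches are bases 8250 to 8374 of MALAT1-202, at chr11:65506011-65506135, and bases 22636 to 22743 of NEAT1-202, at chr11:65445433-65445540 (GENCODE 29, GRCh38, plus strand).
MALAT1-202 3′ part: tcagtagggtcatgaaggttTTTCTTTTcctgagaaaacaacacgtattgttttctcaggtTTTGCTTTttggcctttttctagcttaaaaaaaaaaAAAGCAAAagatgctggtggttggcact
NEAT1-202 3′ part: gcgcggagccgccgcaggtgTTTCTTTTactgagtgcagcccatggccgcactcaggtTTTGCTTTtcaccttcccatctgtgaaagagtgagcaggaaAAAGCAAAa
Capitals mark the U-rich runs TTTCTTTT and TTTGCTTT and the A-rich run AAAGCAAA, written as DNA. All 3 runs in this order within 120 bases, searched on the transcript strand in the last 500 bases, occurred in 2 of 22050 lncRNA transcripts (0.00907%), and these were MALAT1-202 and NEAT1-202. Since the NEAT1 counts mix isoforms with and without this end, they do not give its ratio. Whether RNA with this end was captured alike in the 2 libraries was not tested. The MALAT1 ratio and the quotient of MALAT1 per NEAT1 count carry that limit.

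Paraspeckles are built on NEAT1 by a set of RNA-binding proteins. Of 27 measured genes of that list none passed the size rule, and the median log2 ratio was -0.03. SFPQ, which binds NEAT1, had 5907 and 5434 counts (0.994-fold, 0.958 to 1.03), and its partner NONO had 7630 and 6466 (0.916-fold, 0.886 to 0.947). PSPC1 had 1436 and 1286 (0.968-fold, 0.897 to 1.04). RBM14, needed for paraspeckle assembly, had 758 and 533 counts (0.760-fold, 0.679 to 0.850), and FAM98A had the largest negative ratio of the list at 1.88-fold lower (1.72 to 2.07). FIGN had the largest positive ratio, at 1.36-fold (1.21 to 1.54).

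Of 28 measured genes of nuclear speckles and MALAT1 end processing, none passed the size rule, with a median log2 ratio of -0.02. SON and SRRM2, which organise speckles, had 3189 and 2720 counts (0.922-fold, 0.876 to 0.971) and 11612 and 10629 counts (0.989-fold, 0.964 to 1.02). METTL16, a methyltransferase that binds the MALAT1 triple helix, had the largest negative ratio of the list, with 811 and 458 counts, 1.64-fold lower (1.46 to 1.84). RPP14, a subunit of RNase P, had the largest positive ratio, with 347 and 526 counts at 1.64-fold (1.43 to 1.88). Whether the METTL16 or RPP14 difference has a part in that of MALAT1 was not tested.

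UCA1, first described in bladder cancer, was the most abundant of the 10 per length. Its row (ENSG00000214049) lies on the plus strand of chr19:15828961-15836320. It had 14172 parental and 14627 resistant counts, or 782 and 873 CPM, 1.12-fold (1.09 to 1.14) with a log2 ratio of 0.16. The narrow interval reflects the many counts, and 62.5% of measured lncRNA genes had a lower ratio. No gene within 100 kb of UCA1 was measured. CREB1, a transcription factor linked to both UCA1 and HULC, had 397 and 279 counts (0.760-fold, 0.649 to 0.888).

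TUG1, taurine up-regulated 1, is a widely expressed lncRNA. Its row (ENSG00000253352) lies on the plus strand of chr22:30970677-30979395. It had 3483 parental and 2785 resistant counts, or 192 and 166 CPM, 0.864-fold (0.822 to 0.909) with a log2 ratio of -0.21. MORC2, which starts close by on the opposite strand, had 945 and 778 counts (0.890-fold, 0.808 to 0.980). TUG1 per MORC2 count was 3.69 (parental) and 3.58 (resistant), a quotient of 0.971 (0.871 to 1.08), so no difference between this pair was detectable at this depth. The other measured genes within 100 kb were above 1-fold, OSBP2 with 1194 and 1366 counts (1.24-fold, 1.14 to 1.34) and SMTN with 297 and 319 (1.16-fold, 0.988 to 1.36).

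PVT1 lies downstream of MYC on chromosome 8, is often co-amplified with it, and has been described as protecting MYC protein from degradation. Its row (ENSG00000249859) lies on the plus strand of chr8:127794533-128101253. It had 449 parental and 521 resistant counts, or 24.8 and 31.1 CPM, 1.25-fold (1.10 to 1.43) with a log2 ratio of 0.32. MYC, the only measured gene within 100 kb, had 189 and 113 counts, 1.55-fold lower (1.22 to 1.97). PVT1 per MYC count was 2.38 (parental) and 4.61 (resistant), a quotient of 1.94 (1.48 to 2.56), so the ratios of these neighbours pointed in opposite directions. Of 11 measured genes of a MYC network list, MAX, the obligate partner of MYC, passed the size rule, with 412 and 848 counts at 2.22-fold (1.98 to 2.51). The other 10 did not pass it, and the median log2 ratio of the list was -0.16.

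H19 and HULC were near or below the limit of detection. H19, the imprinted RNA next to IGF2 and abundant in fetal liver, had 0 counts in both libraries (ENSG00000130600, minus strand of chr11:1995163-2001470). HULC, named for its high level in liver cancer, had 1 parental and 4 resistant counts (ENSG00000251164, plus strand of chr6:8652137-8653846). The fold of HULC was 4.32 with an interval from 0.428 to 213, so no difference was detectable at this depth. IGF2 was also low, with 14 and 29 counts (2.24-fold, 1.15 to 4.59). None of 14 measured genes of an H19-IGF2 list of 20 passed the size rule, and 4 had no count in either library. IGF2BP1, IGF2BP2 and IGF2BP3, RNA-binding proteins of the fetal liver and of liver cancer, were at 0.969-fold (0.917 to 1.02), 1.27-fold (1.15 to 1.39) and 1.07-fold (1.01 to 1.14).

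Levels of different genes were compared on the deposited FPKM (counts relative to library depth and to a length per gene, whose limits are given below). The order was the same in both libraries: UCA1, NEAT1, MALAT1, TUG1, HOTAIR, HOTTIP, PVT1, LUCAT1, HULC, with H19 at 0. UCA1 was at 248 (parental) and 275 FPKM (resistant), ranking 1 among measured lncRNA genes in both. NEAT1 was at 86.3 and 85.7, MALAT1 at 61.3 and 41.7, and TUG1 at 12.5 and 10.7 FPKM. HOTAIR went from 10.98 FPKM, rank 40, to 6.26 FPKM, rank 104. HOTTIP was at 2.74 (2.49 to 3.01) and 3.27 (2.99 to 3.58) FPKM. PVT1 was at 2.20 (2.0 to 2.41) and 2.74 (2.51 to 2.99), and LUCAT1 at 0.746 (0.550 to 0.989) and 2.25 (1.89 to 2.67) FPKM. LUCAT1 was apart from PVT1 in the parental library, while their counting intervals overlapped in the resistant library, as did those of PVT1 and HOTTIP.

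The order depended on the gene lengths used. The length implied by the deposited FPKM was 16890 bases for MALAT1, against 8829 exonic bases in GENCODE 29, and 3561 bases for LUCAT1, against 16538. The implied lengths of MALAT1, TUG1 (15480 bases), NEAT1 (26096 bases) and HOTTIP (8778 bases) are longer than the loci of their rows. They cannot be lengths of these genes, and the deposited FPKM understates such genes unevenly. With the GENCODE lengths, MALAT1 (117 CPM per kilobase) was above NEAT1 (98.7) in the parental library and below it in the resistant library (80.0 against 98.5). UCA1 was the highest with either set of lengths. LUCAT1, close to PVT1 on the deposited FPKM of the resistant library, was at 0.487 against 5.66 CPM per kilobase with the GENCODE lengths. The GENCODE entry of LUCAT1 (chr5:91054834-91314547) extends far beyond the counted row, and its exonic length exceeds the locus of that row. Counts of the shorter row over that length do not give its level, so the position of LUCAT1 relative to PVT1 is not settled. The 9 genes with a GENCODE 29 entry, all but HULC, together took 28.0% (27.9 to 28.2, Wilson) of the counts on lncRNA genes in the parental library and 26.3% (26.2 to 26.5) in its counterpart. NEAT1, MALAT1 and UCA1 alone took 26.2% and 24.7%.

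A list of 60 other cancer-related lncRNAs gave a background for the set. Of 59 found, 43 were measured, 30 with a positive and 13 with a negative log2 ratio, and the median was 0.12. Over all measured lncRNA genes 53.3% of ratios were positive, and the median was 0.03. SNHG20, a small nucleolar RNA host gene, was the only one to pass the size rule, with 75 parental and 276 resistant counts, 3.98-fold (3.07 to 5.21). DANCR had 548 and 967 counts (1.91-fold, 1.72 to 2.12), EPB41L4A-AS1 had 324 and 528 (1.76-fold, 1.53 to 2.03), and SNHG1 had 3395 and 5046 (1.61-fold, 1.54 to 1.68). SBF2-AS1 was at 1.73-fold (1.45 to 2.08) and NKILA at 1.74-fold (1.31 to 2.31). FENDRR had 1150 and 567 counts, 1.88-fold lower (1.70 to 2.08), and CASC2 had 30 and 12, 2.31-fold lower (1.15 to 4.96).

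**Figure D4:**
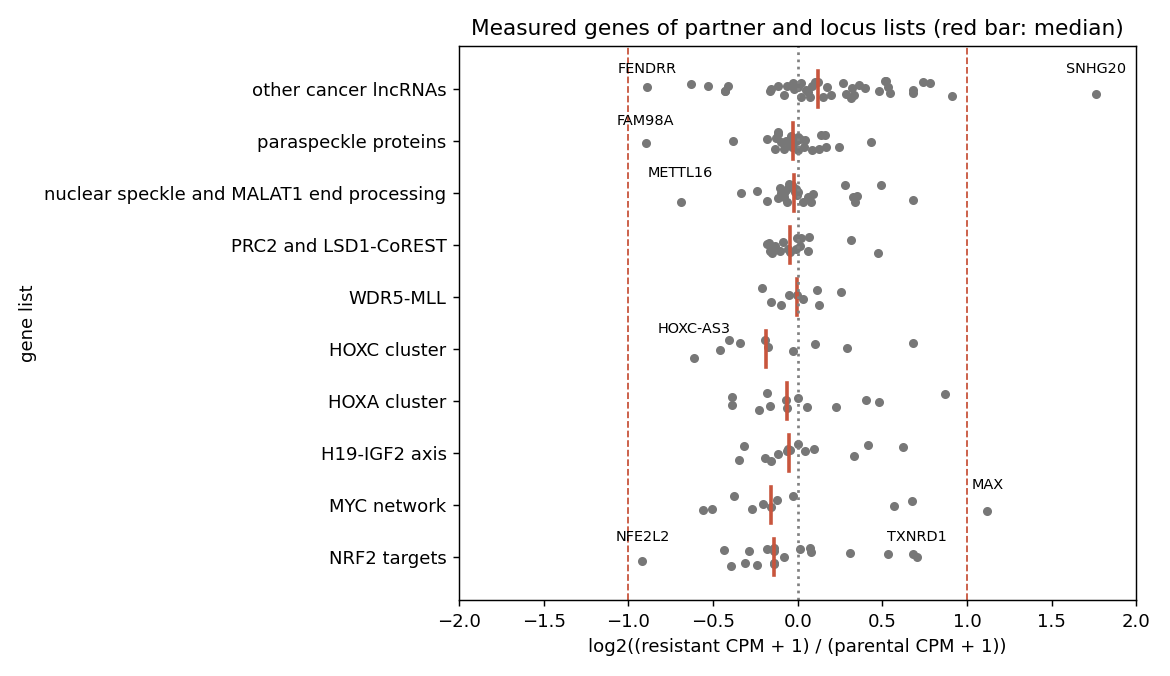
Log2 ratio of resistant to parental CPM (each plus 1) for each measured gene of 10 partner and locus lists, 1 point per gene, with a red bar at each median and dashed lines at -1 and 1. Medians run from -0.18 (HOXC cluster) to 0.12 (other cancer lncRNAs), and the points past 1 are SNHG20 and MAX.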

How the data were processed

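Messenger RNA of 1 parental and 1 resistant culture was sequenced, and the groups follow the treatment labels. The authors deposited 3 tables on 50868 genes. These hold whole-number counts and FPKM of every gene in both libraries, per the file headers, and the authors' deposited table of their own comparison, with a log2 fold change and a call. Per the submitters' processing notes, bcl2fastq 2.19, HISAT2 2.0.4 and StringTie 1.3.0 were used on GRCh38. The annotation release, counting settings and strand use were not given in the sources used here.

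Counts were scaled to CPM with TMM factors (1.003 parental, 0.997 resistant; edgeR 4.0.16, R 4.3.3), with no model fitted and no p-value. The log2 ratio used a pseudocount of 1 CPM, which understates differences of low genes. Folds have none and carry a Clopper-Pearson 95% interval of the 2 counts given their sum. Intervals of ratios between genes are conditional on the counts. Gene types and exons came from GENCODE 29, which held 50111 of the identifiers. Tested on simulated data, 94.5% of 200 genes changed 3-fold and 0% of unchanged genes passed the size rule, with counting noise only and no variation between cultures simulated.

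The 10 genes and all lists were chosen with earlier results of these data known. Named are all 10 genes, up to 8 other lncRNAs and up to 4 genes per list by size of ratio (up to 2 where none passed the size rule), partner genes listed whatever their values, and some of the genes within 100 kb. KEAP1, GCLC, COL3A1 and VWF were named after the data were seen. Of 307 list symbols, 2 were not found or ambiguous. Promoter windows from RefSeq were searched for H19, HOTTIP, LUCAT1, MALAT1 and TUG1. Windows on chromosome 8, where PVT1 lies, were left out of the search for the 10 genes. Alternatives were other scalings, pseudocounts, filters, FPKM, sums over rows that share exons and, added after the data were seen, sums over all rows of a locus.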

Additional observations from a re-analysis of the deposited data

How the results depend on the processing

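The direction of LUCAT1, HOTAIR, MALAT1, PVT1, TUG1 and UCA1 was the same under every alternative run. In part this was fixed in advance, since a changed pseudocount or filter cannot turn the sign of a ratio. Total count and DESeq2 scaling moved ratios little, for MALAT1 from -0.547 to -0.555 and -0.565. NEAT1, whose fold interval included 1, ranged from -0.0196 to -0.0019. HOTTIP, at 0.25 when rows on its own strand were added, was at -0.07 when HOXA13 on the opposite strand was added too. Log2 ratios ranged from 0.77 to 1.44 for LUCAT1 and from -0.80 to -0.63 for HOTAIR. With a pseudocount of 5 CPM the genes past the size rule were 0 of the named set, 12 lncRNA genes, 151 of all measured genes and 2 of the list and neighbour genes, against 4 of the latter in the reported setting (the lncRNA SNHG20, the MYC partner MAX, the fibroblast marker LUM and the endothelial marker CDH5). On the deposited FPKM these were 0 of the named set, 146 of all measured genes and 1 list or neighbour gene. The lncRNA count was 67 with a pseudocount of 0.5 CPM and 15 when a gene had to reach 5 CPM. Without a filter the median over the 9 genes of the set with a count was 0.16. The median log2 ratio of the HOXC cluster list went from -0.18 to -0.03 without a filter. That of the fibroblast markers went from 0.26 to 0.12 on the deposited FPKM. The rule is one of size, and a larger pseudocount pulls ratios toward 0 by construction. No paired analysis was possible because each group has 1 library and no test was made. Low counts limit LUCAT1 in the parental library, HULC and H19.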

Other observations

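Nuclear RNA decay and polyadenylation factors, which set how long nuclear non-coding RNAs persist, lay close to equal levels in the libraries, as did most measured genes. All 26 genes of the decay and polyadenylation list were measured, 15 with a positive and 11 with a negative log2 ratio of resistant to parental. The median was 0.01, and none passed the size rule. Over all measured genes the median was -0.0018, and 2.30% passed the rule. EXOSC5, a subunit of the RNA exosome, had the largest negative ratio with 499 parental and 341 resistant counts (0.739-fold, 0.642 to 0.849). MPHOSPH6, an exosome-associated protein, had the largest positive ratio with 290 and 330 counts (1.23-fold, 1.05 to 1.45).

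Of 16 genes linked to HULC, UCA1 or TUG1 in earlier work, 15 were measured and none passed the size rule, with a median log2 ratio of -0.14. CEBPA, a hepatocyte and myeloid transcription factor, had 584 and 383 counts (0.709-fold, 0.622 to 0.808). PRKACA, a catalytic subunit of protein kinase A, had 1352 and 1663 counts (1.33-fold, 1.24 to 1.43).

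Among the other promoter windows searched, 1 of the MALAT1 windows held a TATAAA, and that of TUG1 held a CACGTG. The other MALAT1 window held the antioxidant response element core TGACNNNGC at -231 to -223 and again at -51 to -43 from the start. It also held a TGACG at -51 to -47. Of all 35116 windows, 11.5% held TATAAA, 24.6% TGACG and 7.26% CACGTG. Those of H19 and HOTTIP held no match to the motifs searched, which says only that these letters are not in the window.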
